A study of Rattus norvegicus with 12 samples.

Results

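DNA repair genes without a replication annotation were followed in primary midbrain astrocytes of newborn SD rats exposed to 10 µM of the compound PT109B. The genes are all lines of the deposited table whose Gene Ontology process text names DNA repair and does not name DNA replication, leaving out symbols that start with Kif, Cenp, Cdca or Plk and the genes Cdk1, Pttg1 and Top2a. Of 9721 lines, 180 carried the repair text, 49 of these also carried the replication text and 2 more had an excluded symbol, which left 129 members. One member line had no symbol, and Hmgb1 stood on 2 lines, the second described as a pseudogene, so reads may be split between them and both Hmgb1 values are uncertain. The annotation itself was uneven: the line of Pgd is described as a kinesin, the process text of Prrt2 mixes unrelated functions, and 45 members belong to none of the repair pathway lists used here. The rule reads annotation text and no expression value, but it was set with earlier results of these data known.

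RNA was sequenced from 12 libraries of wild-type cells kept in medium with 10% FBS. They formed 4 groups of 3: untreated controls (0 h) and cells harvested at 1.5, 3 and 6 h in PT109B. No control of 1.5, 3 or 6 h is listed, so the compound, time and handling cannot be told apart. The labels do not say whether replicates were separate cultures, so a p-value reflects how far these libraries scatter, and that scatter may be technical alone. Summed gene counts were 9368967 to 12498047 per library. The astrocyte markers Gfap (533 to 754 FPKM, the length-scaled level, in controls), Aqp4 (168 to 302 FPKM) and Sox9 (20.7 to 24.6 FPKM) were high, and the microglial marker Aif1 was present as well (71.6 to 91.5 FPKM in controls).

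Cells repair DNA by several routes. Base excision repair removes single damaged bases through glycosylases and the endonuclease Apex1, nucleotide excision repair cuts out bulky lesions, and mismatch repair corrects copying errors. Double-strand breaks are joined by end joining or copied back by homologous recombination, which works mainly in cycling cells and shares factors with the Fanconi anaemia pathway of crosslink repair, while the kinase Atm and the effector Chek1 signal the damage. Many recombination genes are transcribed with the cell cycle through E2F factors, whereas postmitotic brain cells rely more on excision and end joining.

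Of the treated libraries, 3 stood apart from their groups and closer to the controls: replicate 3 at 1.5 h, replicate 3 at 3 h and replicate 1 at 6 h. The mean log2 CPM (depth-scaled counts, with TMM factors) of 20 mitosis markers was 2.81, 2.62 and 5.70 in the 3 h replicates 1 to 3 and 5.72, 2.29 and 2.51 in the 6 h replicates 1 to 3, against 6.06 to 6.50 in controls. At 1.5 h the mitosis markers were at 5.98 to 6.24, but 19 microglial markers were at 3.66, 3.63 and 7.06 in replicates 1 to 3, against 6.68 to 6.97 in controls. In the same 1.5 h replicates 12 fibroblast and meningeal markers were at 7.40, 7.37 and 5.70 (controls 5.50 to 5.99), 12 oligodendrocyte lineage markers at 5.47, 5.58 and 4.22 (controls 4.17 to 4.53) and 8 endothelial markers at 0.94, 0.89 and 2.57 (controls 2.37 to 2.59). The 18 S phase markers were at 3.91, 3.75 and 5.43 in 3 h replicates 1 to 3 and 5.21, 3.79 and 3.74 in 6 h replicates 1 to 3, against 5.63 to 6.04 in controls. In RNA from mixed cultures, fewer cells of a type and less RNA per cell cannot be told apart. The part of these shifts in the results was not tested. Counts of calls are also given without the 3 libraries. Members described as not called that pass the threshold without them are given mainly at the times described, and not every such call is printed. These 3 libraries were picked from the same data, after they were seen to lie nearer the controls. Leaving them out thus tends by construction to enlarge changes and shrink the spread. The p-values of that fit describe the remaining libraries and are not independent support for a call.

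From 3 h, genes of checkpoint signalling (Atm, Chek1), recombination (Rad50) and damage tolerance at stalled forks (Zranb3) were among the members that fell. Among those that rose were the excision repair genes Apex1 and Ercc1 and the chromatin regulators Dot1l and Sirt7. The chaperone Hspa1a was called higher at 1.5 h and 3 h but not at 6 h. A member was called at an adjusted p below 0.05 in edgeR's quasi-likelihood test, adjusted by Benjamini-Hochberg over the 9491 genes tested, and all 129 members were tested. At 1.5 h 2 members were called, 1 higher (0.775% of members) and 1 lower, against 3.32% of all genes called in either direction, 1.95% higher and 1.37% lower; 20 members had an unadjusted p below 0.05, and with the replicate number as a block 0 were called. At 3 h 38 members were called, 13 higher and 25 lower, or 10.1% and 19.4% of members, against 21.4% of all genes called, 13.5% higher and 7.94% lower. At 6 h 52 members were called, 25 higher and 27 lower, or 19.4% and 20.9% of members, against 30.5% of all genes called, 18.7% higher and 11.8% lower. The share of members called higher was thus near or under that of all genes, and the share called lower was above it at both times. The median log2 fold change of the members was -0.08 at 1.5 h, -0.33 at 3 h and -0.28 at 6 h, against -0.01, -0.03 and -0.02 over all genes tested.

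The split depended on the scaling. With library size alone, 6 members were called higher and 49 lower at 3 h, and 11 higher and 37 lower at 6 h; the median of all genes then shifted to -0.34 at 3 h and -0.24 at 6 h, so changes here are relative to a total that TMM centres near 0. Without the 3 libraries that stood apart, 18 members were higher and 27 lower at 1.5 h, 27 higher and 75 lower at 3 h, and 31 higher and 73 lower at 6 h. Most genes passed the threshold in that fit: over all genes 59.2% were called at 1.5 h (28.7% higher and 30.5% lower), 70.9% at 3 h (31.4% higher and 39.6% lower) and 75.1% at 6 h (33.3% higher and 41.8% lower). The 12 leave-one-out fits called between 13 and 74 members at 3 h and between 23 and 72 at 6 h; the 3 h count was 74 without 3 h replicate 3, 13 without control replicate 1 or 3 h replicate 2, 14 without 3 h replicate 1, 17 without control replicate 2 and 19 without control replicate 3, and the 6 h count was 23 to 27 without any one control or without 6 h replicate 2 or 3. Of the calls against control, 12 of 38 at 3 h and 17 of 52 at 6 h stood in every leave-one-out fit, and no call changed sign in any alternative.

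**Figure D1:**
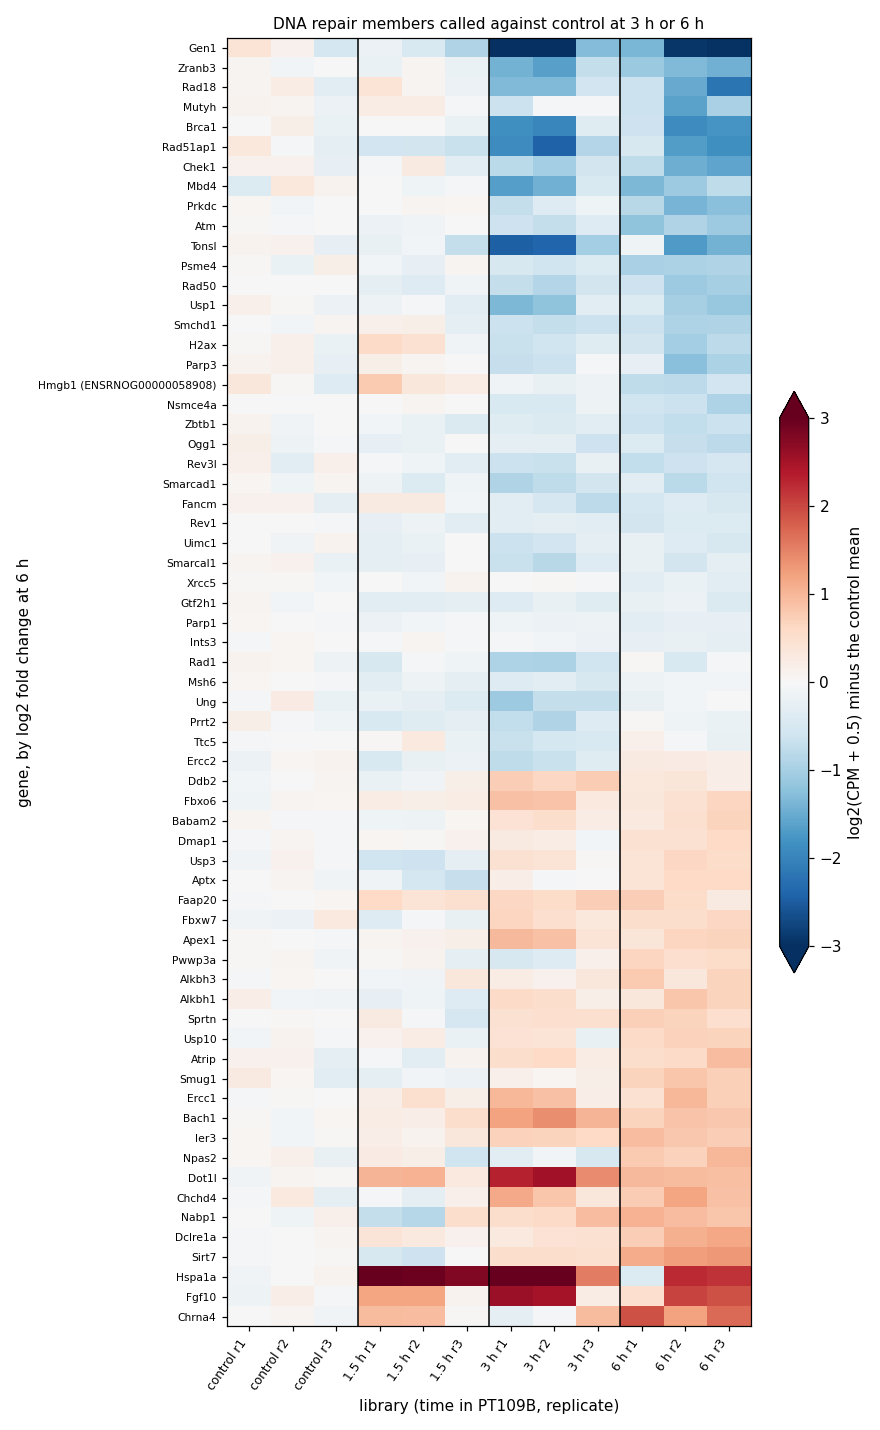
Heat map of members called against control at 3 h or 6 h. Columns are the 12 libraries by time in PT109B and replicate, rows are genes ordered by log2 fold change at 6 h, and colour is log2(CPM + 0.5) minus the mean of the 3 controls, cut at 3 in either direction; recombination genes such as Gen1 and Brca1 are paler in 3 h replicate 3 and 6 h replicate 1 than in the other libraries of those times.

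Among 13 members that fell at both 3 h and 6 h were Atm, Chek1, Rad50, Rev1, Usp1 and Zranb3, which make up 52.0% of the 25 lower at 3 h and 48.1% of the 27 lower at 6 h. Among 10 members that rose at both times were Apex1, Ercc1, Sirt7, Dot1l and Bach1, or 76.9% of the 13 higher at 3 h and 40.0% of the 25 higher at 6 h. No member was called in opposite directions. The comparisons share the control libraries. In every call at 3 h and 6 h the 3 treated libraries lay beyond all 3 controls, except for Parp3 at 6 h. The calls were made from these same libraries, which favours such a separation, so it adds no support. The share of all genes separated in this way was not counted.

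Atm and Chek1, kinases of damage signalling, fell. On the list of damage signalling kinases and checkpoint genes, 1 of 11 members rose and 4 fell at 3 h, and 2 rose and 3 fell at 6 h, with list medians of -0.41 and -0.37. Over all genes tested, 13.5% were called higher and 7.94% lower at 3 h, and 18.7% higher and 11.8% lower at 6 h. Whether this or any later list differed from these shares was not tested. Atm, the kinase that responds to double-strand breaks, had 69.2, 66.3 and 67.8 CPM in controls and 59.7, 63 and 67.2 CPM at 1.5 h. It had 43.9, 41 and 51.4 CPM at 3 h and 29.1, 35.9 and 31.8 CPM at 6 h. Its level fell stepwise, with every 3 h library under the controls and every 6 h library under the 3 h libraries. The log2 fold change was -0.58 ± 0.12 (SE) at 3 h and -1.07 ± 0.12 at 6 h (edgeR adjusted p = 0.0081 and 0.00023), and the log2 difference of 6 h from 3 h was -0.49 ± 0.12 (edgeR adjusted p = 0.046, not called with only these 2 groups in the fit). Both calls against control stood in every alternative.

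Chek1, the checkpoint kinase that holds cells with unfinished or damaged DNA before mitosis, had 28.4, 28.6 and 21.8 CPM in controls and 25.5, 31.3 and 20.9 CPM at 1.5 h. It had 14.6, 12.5 and 17.5 CPM at 3 h and 15.1, 9.13 and 8.34 CPM at 6 h. The 3 h and 6 h libraries lay under all controls, and 6 h replicate 1 was the highest of its group. Chek1 changed by -0.82 ± 0.25 at 3 h and by -1.27 ± 0.25 at 6 h on the log2 scale (edgeR adjusted p = 0.041 and 0.0042), and the 6 h call stood in every alternative. Chek1 lost its 3 h call without control replicates 1, 2 or 3, 1.5 h replicate 1 or 3 h replicates 1 or 2 (then -0.93 to -0.74). H2ax, the histone variant that is phosphorylated around breaks, had 43.6, 31.4 and 37 CPM at 6 h, against 65.3, 71.3 and 56 CPM in controls, a log2 change of -0.78 ± 0.19 (edgeR adjusted p = 0.012) that stood in every alternative. At 1.5 h H2ax had 94.9, 88.1 and 59.2 CPM, with replicates 1 and 2 above the controls and replicate 3 among them (log2 fold change 0.33 ± 0.19, edgeR adjusted p = 0.33, not called). Without replicate 3 and the other libraries that stood apart, H2ax was called at 1.5 h (0.51 ± 0.10, edgeR adjusted p = 0.0007).

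A clamp subunit and a reader subunit fell at 3 h. Rad1, part of the ring-shaped checkpoint clamp, had 5.31, 5.28 and 6.78 CPM at 3 h, against 11.4, 11.1 and 9.42 CPM in controls (log2 fold change -0.87 ± 0.22, edgeR adjusted p = 0.022). Rad1 lost its 3 h call without control replicates 1 or 2 or 3 h replicates 1 or 2 (then -0.84 to -0.82). Uimc1, the ubiquitin reader that brings the BRCA1-A complex to breaks, changed by -0.49 ± 0.14 (edgeR adjusted p = 0.031). Uimc1 lost its 3 h call without control replicates 1, 2 or 3 or 3 h replicates 1 or 2 (then -0.55 to -0.44). Babam2 and Atrip rose on the same list. Babam2, a scaffold of the BRCA1-A complex, changed by 0.40 ± 0.13 at 3 h and 0.50 ± 0.13 at 6 h (edgeR adjusted p = 0.048 and 0.015). Babam2 lost its 3 h call without control replicates 1, 2 or 3, 1.5 h replicates 1 or 2, 3 h replicates 1 or 2 or 6 h replicates 2 or 3 (then 0.29 to 0.44) and with library size alone. Babam2 also lost its 6 h call without control replicates 2 or 3 or 6 h replicates 2 or 3 (then 0.33 to 0.47) and with library size alone. Atrip, the partner that loads the kinase Atr onto single-stranded DNA, had 18, 18.4 and 23.7 CPM at 6 h, against 13.5, 13.5 and 10.0 CPM in controls (log2 fold change 0.69 ± 0.20, edgeR adjusted p = 0.025). Atrip lost its 6 h call without control replicates 1, 2 or 3 or 6 h replicates 2 or 3 (then 0.49 to 0.76) and with library size alone. Mdc1, which binds phosphorylated H2ax, was not called (-0.36 ± 0.20 at 3 h and -0.40 ± 0.20 at 6 h). Mdc1 was called without the libraries that stood apart (-0.67 ± 0.12 and -0.60 ± 0.12, edgeR adjusted p = 0.00014 and 0.00035).

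**Figure D2:**
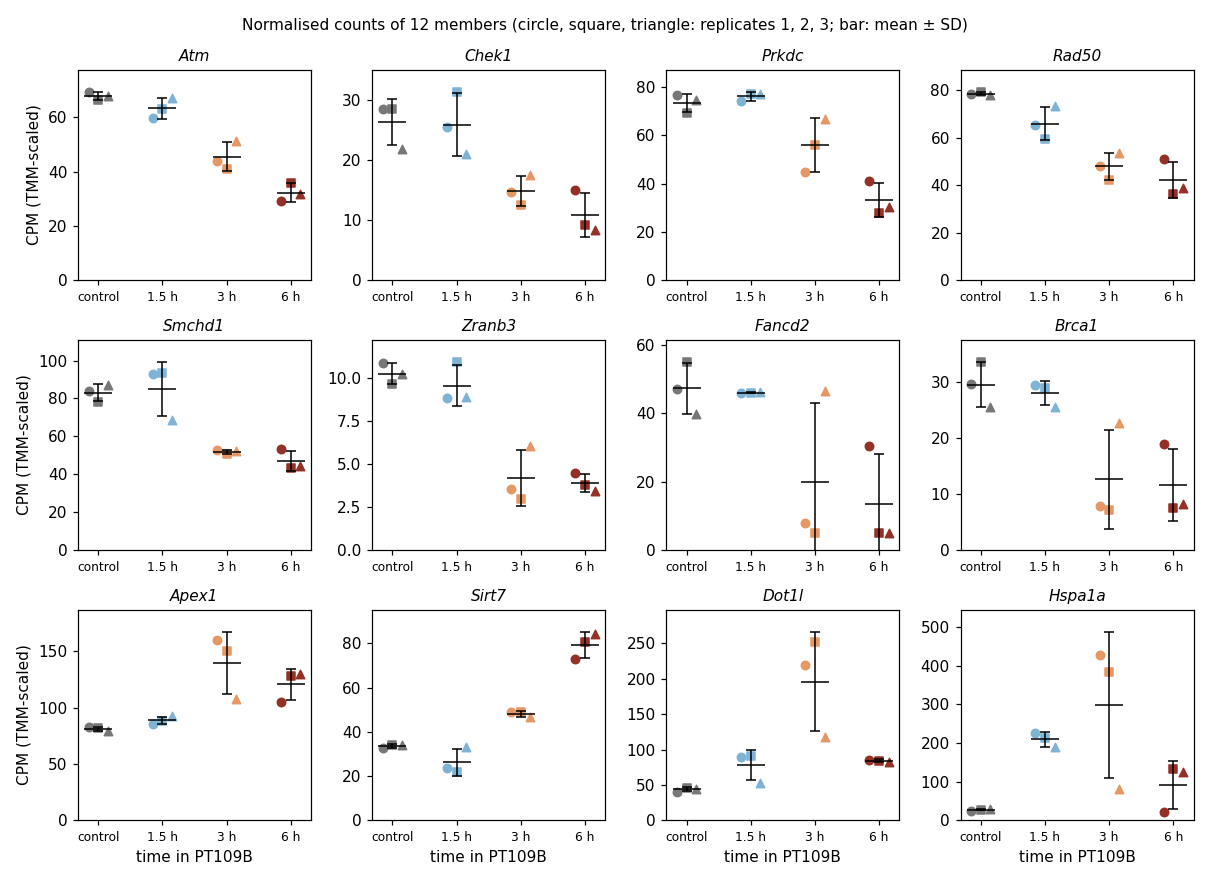
Normalised counts (CPM, TMM-scaled) of 12 members by time in PT109B. Circles, squares and triangles are replicates 1, 2 and 3 and the black bars give the mean ± SD of 3 libraries; Atm, Chek1, Prkdc and Rad50 are under all controls at 6 h, Fancd2 and Brca1 split within the 3 h and 6 h groups, Sirt7 is highest at 6 h, and Dot1l and Hspa1a peak at 3 h in replicates 1 and 2.

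Promoter windows holding an E2F sequence are shown for 4 members that fell and for Fancd2, which split within its groups, since E2F factors drive many S-phase genes. RefSeq windows (GRCr8 assembly, 250 bases before to 50 after the start, 300 in all) were found for 109 member symbols and were searched on both strands for TTTCCCGC, TTTGGCGC and TTTCGCGC. The letters stood in 4 of 34 members called lower at 3 h or 6 h (Atm, Chek1, Msh6 and Usp1), in 0 of 25 called higher and in 5 of 50 called at neither time, among them Fancd2. The share was 8.26% over all members with a window, 3.54% over the 7269 tested genes with one and 1.93% over all 27457 genes of the promoter table. A match is a description of these letters, not a binding site. The capitals below mark the match on either strand, in windows at chr8:62828580-62828879 (Atm, minus strand), chr8:44629794-44630093 (Chek1, minus strand), chr6:12333456-12333755 (Msh6, minus strand), chr5:118702806-118703105 (Usp1, plus strand) and chr4:148234458-148234757 (Fancd2, plus strand).
Atm: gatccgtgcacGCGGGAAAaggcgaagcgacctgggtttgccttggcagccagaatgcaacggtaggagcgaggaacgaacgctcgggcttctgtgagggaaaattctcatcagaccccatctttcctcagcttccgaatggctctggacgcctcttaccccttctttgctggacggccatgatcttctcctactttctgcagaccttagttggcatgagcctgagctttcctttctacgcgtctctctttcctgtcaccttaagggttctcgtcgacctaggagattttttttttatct
Chek1: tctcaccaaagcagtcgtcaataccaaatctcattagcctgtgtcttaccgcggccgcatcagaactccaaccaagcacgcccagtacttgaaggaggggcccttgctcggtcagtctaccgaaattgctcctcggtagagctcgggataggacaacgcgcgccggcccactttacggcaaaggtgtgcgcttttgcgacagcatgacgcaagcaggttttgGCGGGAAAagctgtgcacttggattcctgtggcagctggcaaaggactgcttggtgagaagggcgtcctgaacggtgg
Msh6: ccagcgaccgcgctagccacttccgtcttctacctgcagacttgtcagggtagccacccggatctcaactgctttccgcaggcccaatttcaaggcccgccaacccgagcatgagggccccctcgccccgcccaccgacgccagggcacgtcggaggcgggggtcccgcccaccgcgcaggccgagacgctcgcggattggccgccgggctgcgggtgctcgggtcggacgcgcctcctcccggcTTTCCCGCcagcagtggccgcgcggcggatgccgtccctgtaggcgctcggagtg
Usp1: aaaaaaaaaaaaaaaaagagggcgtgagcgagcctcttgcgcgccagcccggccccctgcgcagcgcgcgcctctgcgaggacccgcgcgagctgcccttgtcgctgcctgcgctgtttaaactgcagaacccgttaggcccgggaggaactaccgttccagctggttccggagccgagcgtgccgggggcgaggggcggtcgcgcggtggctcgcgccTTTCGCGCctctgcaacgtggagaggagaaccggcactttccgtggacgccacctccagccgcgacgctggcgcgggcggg
Fancd2: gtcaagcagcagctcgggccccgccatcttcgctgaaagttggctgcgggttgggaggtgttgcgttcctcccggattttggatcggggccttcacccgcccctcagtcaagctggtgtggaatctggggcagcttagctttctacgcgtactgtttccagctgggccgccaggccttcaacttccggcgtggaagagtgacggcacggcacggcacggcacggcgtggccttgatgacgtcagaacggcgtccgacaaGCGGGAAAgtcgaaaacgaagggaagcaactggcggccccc
In Usp1 and Chek1 the match lay within 31 bases before the annotated start, and in Msh6 it began at -5 and ran across the start. In Fancd2 the match lay 9 bases after the start, and in Atm it lay near the far end of the window. The cell-cycle element TTTGAA stood in 6 of 34 lower, 1 of 25 higher and 9 of 50 uncalled members, against 12.6% of tested genes. TGACGTCA stood in 0 of 34 lower, 0 of 25 higher and 2 of 50 uncalled members, against 206 of 7269 tested genes. TGACTCA stood in 2 of 34 lower, 2 of 25 higher and 0 of 50 uncalled members, against 291 of 7269 tested genes.

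Of 20 homologous recombination members 0 rose and 3 fell at each of 3 h and 6 h, with list medians of -0.79 and -0.71. Of all genes, 13.5% and 18.7% were called higher at these times and 7.94% and 11.8% lower. A difference of this list from those shares was not tested. Rad50, a subunit of the complex that first binds and trims broken ends, had 78.3, 79.1 and 78.1 CPM in controls and 65.1, 59.5 and 73.1 CPM at 1.5 h. It had 47.9, 42.2 and 53.6 CPM at 3 h and 50.8, 36.4 and 39 CPM at 6 h. All 3 h and 6 h libraries were under all controls, and 6 h replicate 1 stood above the other 6 h libraries. The log2 fold change was -0.71 ± 0.15 at 3 h and -0.90 ± 0.15 at 6 h (edgeR adjusted p = 0.0078 and 0.0015), and both calls stood in every alternative. Nbn and Mre11, the other subunits of that complex, were not called at 3 h (-0.11 ± 0.11, edgeR adjusted p = 0.48, and -0.29 ± 0.11, edgeR adjusted p = 0.079) or at 6 h (-0.16 ± 0.11 and -0.18 ± 0.11, edgeR adjusted p = 0.27 and 0.22); the difference between the subunits was not tested. The fit without the libraries that stood apart called Mre11 at 3 h (-0.33 ± 0.11, edgeR adjusted p = 0.014) and Nbn at 6 h (-0.29 ± 0.09, edgeR adjusted p = 0.0092).

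Gen1, a nuclease that cuts the crossed strands left by recombination, had 10.6, 8.71 and 5.28 CPM in controls and 6.94, 5.65 and 4.03 CPM at 1.5 h. It had 0.295, 0.550 and 2.93 CPM at 3 h and 2.74, 0.616 and 0.571 CPM at 6 h. Replicates 1 and 2 at 3 h and 2 and 3 at 6 h were below 1 CPM, and the 2 libraries that stood apart were between them and the controls. Gen1 changed by -2.67 ± 0.79 at 3 h (edgeR adjusted p = 0.036) and by -2.60 ± 0.79 at 6 h (edgeR adjusted p = 0.03). Without the libraries that stood apart, Gen1 was at -4.33 ± 0.46 at 3 h. Gen1 lost its 3 h call without control replicates 1, 2 or 3, 1.5 h replicate 2 or 3 h replicates 1 or 2 (then -2.91 to -2.22). Gen1 also lost its 6 h call without control replicates 1 or 2 or 6 h replicates 2 or 3 (then -2.56 to -2.32). Rad51ap1, an accessory factor of recombination, fell by 1.73 ± 0.48 at 3 h (edgeR adjusted p = 0.031). Rad51ap1 lost its 3 h call without control replicates 1, 2 or 3 or 3 h replicates 1 or 2 (then -1.86 to -1.44). Brca1, the tumour suppressor that promotes end resection, had 19, 7.59 and 8.34 CPM at 6 h, against 29.6, 33.6 and 25.6 CPM in controls (log2 fold change -1.34 ± 0.45, edgeR adjusted p = 0.045). Brca1 lost its 6 h call without control replicates 1, 2 or 3, 1.5 h replicates 1 or 2 or 6 h replicates 2 or 3 (then -1.43 to -1.16) and with library size alone.

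Recombination and crosslink members spread widely inside the 3 h and 6 h groups. The mean log2 CPM of the 29 members on these lists was 3.04, 3.02 and 4.05 in 3 h replicates 1 to 3 and 4.13, 3.11 and 3.10 in 6 h replicates 1 to 3, against 4.13 to 4.39 in controls. Fancd2, the central switch of crosslink repair, had 47.3, 55 and 40.0 CPM in controls and 46, 46.1 and 46.3 CPM at 1.5 h. It had 8.06, 5.17 and 46.7 CPM at 3 h and 30.5, 5.03 and 4.91 CPM at 6 h. Fanci, its partner, had 51.6, 52.6 and 40.7 CPM in controls and 45.2, 55.7 and 40.7 CPM at 1.5 h. It had 6.88, 5.50 and 40.0 CPM at 3 h and 34.1, 3.08 and 3.89 CPM at 6 h. In both, the library that stood apart at 3 h was at the control level and that at 6 h was closer to it than the other 2, and neither gene was called (-1.80 ± 0.84 with edgeR adjusted p = 0.13 and -1.81 ± 0.92 with edgeR adjusted p = 0.15 at 6 h). Without the libraries that stood apart, the 6 h log2 fold change was -3.34 ± 0.19 for Fancd2 and -3.88 ± 0.20 for Fanci (edgeR adjusted p = 1.2e-09 and 2.6e-10). At 3 h it was -2.89 ± 0.18 and -3.02 ± 0.18 (edgeR adjusted p = 2.7e-09 and 1e-09).

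In all, 20 members were over 1 log2 unit higher in the library that stood apart than in the mean of the other pair at both 3 h and 6 h, and 11 of these 20 belong to the 29 recombination and crosslink members. The others included Exo1, the resection nuclease, Parpbp, Mms22l and Aunip. Parpbp, a brake on recombination, had 0.885, 0 and 10.7 CPM at 3 h and 11, 0.924 and 1.14 CPM at 6 h. Of the 20, 3 were called lower at 3 h and 2 at 6 h. At 3 h 25 of 129 members had such a gap, against 12.4% of all genes tested, and at 6 h 24 of 129, against 10.9% of all genes. Across the 129 members the gaps at 3 h and 6 h, which share no library, had a Pearson r of 0.80 and a Spearman rho of 0.79. Over all genes tested the Pearson r was 0.79, so this correlation was not particular to the members. Genes are not independent replicates, and all gaps of a time share its 3 libraries. The mitosis markers moved the same way in these libraries, and their part in the gap was not tested.

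**Figure D3:**
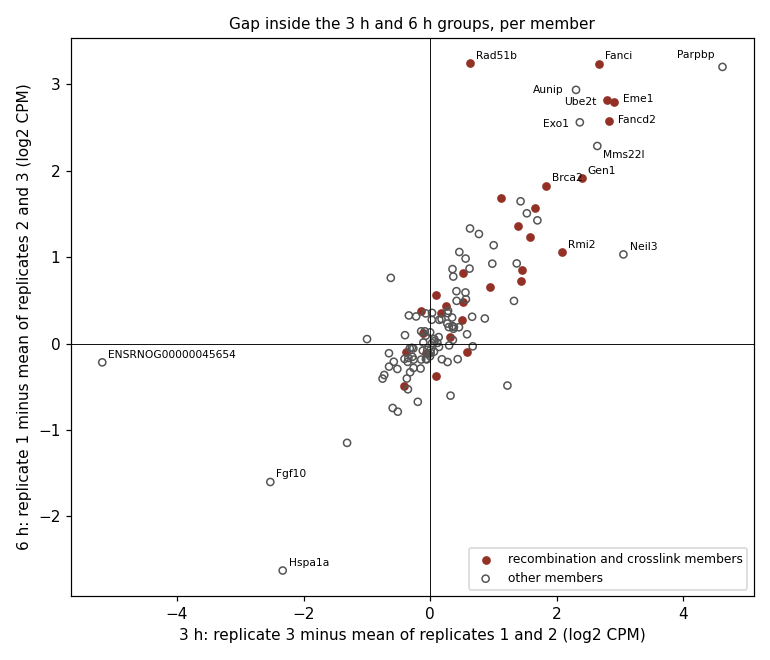
Gap inside the treated groups for each of the 129 members. The x axis is 3 h replicate 3 minus the mean of 3 h replicates 1 and 2 and the y axis 6 h replicate 1 minus the mean of 6 h replicates 2 and 3, both in log2 CPM; filled points are the 29 recombination and crosslink members and labelled points exceed 1.8 on an axis, with Fanci, Fancd2, Eme1 and Parpbp high on both and Hspa1a and Fgf10 low on both.

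The crosslink list also held genes that rose. Of its 9 members 1 rose and 2 fell at 3 h, and 2 rose and 1 fell at 6 h. Over all genes, 13.5% rose and 7.94% fell at 3 h, and 18.7% rose and 11.8% fell at 6 h. Dclre1a, a nuclease that digests past crosslinks, had 19.4, 20.1 and 21.4 CPM in controls and 26.8, 24.8 and 22.1 CPM at 1.5 h. It had 24.9, 27.7 and 28 CPM at 3 h and 34, 42.8 and 45.6 CPM at 6 h. Every 6 h library was above every library of the other groups, with a log2 fold change of 1.01 ± 0.14 (edgeR adjusted p = 0.00062) that stood in every alternative. Usp1, which removes ubiquitin from Fancd2 and PCNA, had 106, 98.7 and 85 CPM in controls and 86.5, 93.9 and 77.1 CPM at 1.5 h. It had 37.8, 41.1 and 75.9 CPM at 3 h and 71.8, 47.7 and 43.3 CPM at 6 h. Usp1 changed by -0.91 ± 0.27 at 3 h (edgeR adjusted p = 0.036) and by -0.83 ± 0.27 at 6 h (edgeR adjusted p = 0.037). Usp1 lost its 3 h call without control replicates 1, 2 or 3, 1.5 h replicate 1 or 3 h replicates 1 or 2 (then -0.99 to -0.75). Usp1 also lost its 6 h call without control replicates 1, 2 or 3, 1.5 h replicate 1 or 6 h replicates 2 or 3 (then -0.92 to -0.76). Fancm, the translocase that anchors the core complex, fell by 0.55 ± 0.17 at 3 h (edgeR adjusted p = 0.045). Fancm lost its 3 h call without control replicates 1 or 2, 1.5 h replicates 1 or 2 or 3 h replicate 2 (then -0.60 to -0.48). Faap20, which links the core complex to ubiquitin, was higher by 0.68 ± 0.19 at 3 h and 0.56 ± 0.19 at 6 h (edgeR adjusted p = 0.029 and 0.043). Faap20 lost its 3 h call without control replicates 1, 2 or 3, 3 h replicates 1, 2 or 3 or 6 h replicate 2 (then 0.55 to 0.71) and with library size alone. Faap20 also lost its 6 h call without control replicates 1, 2 or 3, 1.5 h replicates 1 or 2, 3 h replicates 1, 2 or 3 or 6 h replicates 1, 2 or 3 (then 0.43 to 0.62) and with library size alone. Its 6 h call was also lost without the 3 libraries that stood apart (then 0.35 ± 0.19, edgeR adjusted p = 0.1).

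Of 4 end joining members 0 were called at 3 h (list median -0.20) and 2 fell at 6 h (median -0.24). Called in either direction were 21.4% of all genes at 3 h, and 11.8% were called lower at 6 h. Prkdc, the catalytic subunit of the DNA-dependent protein kinase, had 76.5, 69.4 and 74.5 CPM in controls and 74.1, 77.2 and 76.9 CPM at 1.5 h. It had 44.6, 56.1 and 66.9 CPM at 3 h and 41.1, 27.8 and 30.5 CPM at 6 h. The 6 h libraries were all under the 3 h libraries, and the log2 fold change at 6 h was -1.15 ± 0.17 against control (edgeR adjusted p = 0.00092) and -0.75 against 3 h (edgeR adjusted p = 0.038, not called with only these 2 groups in the fit). The call against control stood in every alternative. Xrcc5, the larger Ku subunit that binds broken ends, had 88, 96.9 and 88.5 CPM at 6 h, against 114, 114 and 106 CPM in controls, a fold change of -0.29 ± 0.09 on the log2 scale (edgeR adjusted p = 0.035). Xrcc5 lost its 6 h call without control replicates 1, 2 or 3, 1.5 h replicate 1 or 6 h replicates 1 or 3 (then -0.34 to -0.26). Tp53bp1, which shields ends from resection, was not called (-0.19 ± 0.11 at 6 h, edgeR adjusted p = 0.19), but was called without the libraries that stood apart (-0.22 ± 0.07, edgeR adjusted p = 0.013). In that fit it was called in the other direction at 1.5 h (0.27 ± 0.07, edgeR adjusted p = 0.0043).

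Of 5 lesion bypass and tolerance members 0 rose and 3 fell at 3 h, and 0 rose and 4 fell at 6 h, with medians of -0.63 and -0.64. Among all genes 13.5% rose and 7.94% fell at 3 h, and 18.7% rose and 11.8% fell at 6 h. Zranb3, a translocase that remodels stalled forks, had 10.9, 9.64 and 10.2 CPM in controls and 8.85, 10.9 and 8.86 CPM at 1.5 h. It had 3.54, 2.97 and 6.05 CPM at 3 h and 4.45, 3.80 and 3.43 CPM at 6 h. All 6 libraries of the 3 h and 6 h groups were under the controls, and the log2 fold change was -1.28 ± 0.28 and -1.39 ± 0.28 (edgeR adjusted p = 0.01 and 0.0043), calls that stood in every alternative. Rev1, the scaffold of bypass polymerases, had 50.4, 50.3 and 49 CPM in controls and 41.8, 44.5 and 40.1 CPM at 1.5 h. It had 39.3, 40.8 and 39.3 CPM at 3 h and 34.2, 37.2 and 37.1 CPM at 6 h. Its 6 h change of -0.47 ± 0.09 (edgeR adjusted p = 0.0044) stood in every alternative, and its 3 h change was -0.33 ± 0.09 (edgeR adjusted p = 0.033). Rev1 lost its 3 h call without control replicates 1, 2 or 3, 1.5 h replicate 1 or 3 h replicates 1 or 2 (then -0.38 to -0.32).

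The other bypass and tolerance genes fell at 1 time each. Rev3l, the catalytic subunit of polymerase zeta, had 24.1, 26.2 and 28.5 CPM at 6 h, against 44.9, 32.7 and 45.3 CPM in controls (log2 fold change -0.64 ± 0.17, edgeR adjusted p = 0.018). Rev3l lost its 6 h call without control replicates 1 or 3 (then -0.57 to -0.56). Rad18, the ligase that marks PCNA for bypass, fell by 1.38 ± 0.39 at 6 h (edgeR adjusted p = 0.023). Rad18 lost its 6 h call without control replicates 1 or 2 or 6 h replicates 2 or 3 (then -1.35 to -1.13). Smarcal1, an annealing helicase of stalled forks, fell by 0.63 ± 0.17 at 3 h (edgeR adjusted p = 0.027). Smarcal1 lost its 3 h call without control replicates 1 or 2 or 3 h replicates 1 or 2 (then -0.63 to -0.56).

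**Figure D4:**
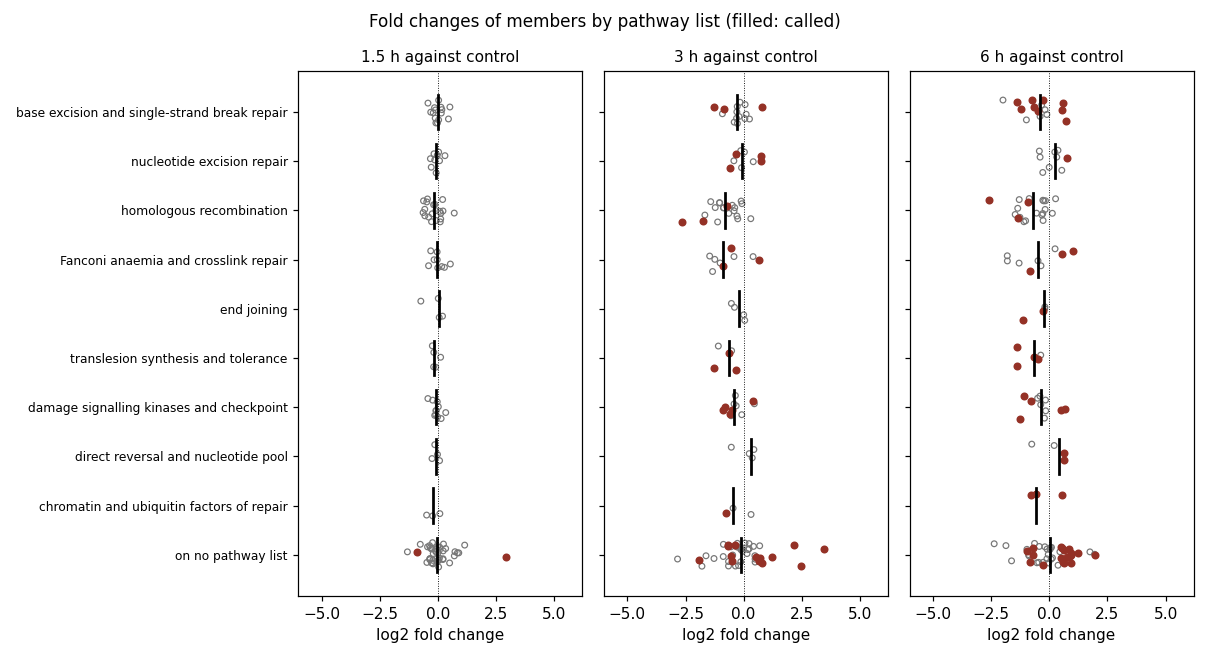
Log2 fold change against control of members by pathway list at 1.5, 3 and 6 h (left to right). Each point is a member, filled where called at an adjusted p below 0.05, and the black bar is the list median. Recombination, crosslink, bypass, base excision, end joining, damage signalling and chromatin medians lie left of 0 at 3 h and 6 h. The direct reversal median (4 members) lies right of 0 at both times, but was -0.01 at 3 h with library size alone. A member on 2 lists is drawn on each.

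Msh6, a mismatch repair gene, had 86.9, 84.3 and 80.3 CPM in controls and 66.3, 74.7 and 68.7 CPM at 1.5 h. It had 63.9, 66.1 and 59.9 CPM at 3 h and 74.8, 79.4 and 79 CPM at 6 h. Msh6 fell at 3 h, with a log2 fold change of -0.41 ± 0.09 (edgeR adjusted p = 0.013). Msh6 lost its 3 h call without control replicates 1 or 2 (then -0.40 to -0.38). At 6 h it was not called (-0.11 ± 0.09, edgeR adjusted p = 0.38). Exo1 had 2.16, 1.54 and 10.2 CPM at 3 h and 8.56, 1.23 and 1.37 CPM at 6 h, against 16.8, 18.7 and 12.8 CPM in controls, and was not called (edgeR adjusted p = 0.12 and 0.068). Without the libraries that stood apart, Exo1 was called at both times (-3.17 ± 0.26 and -3.71 ± 0.28, edgeR adjusted p = 4.7e-08 and 1.9e-08).

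Of 15 base excision and strand break members 1 rose and 2 fell at 3 h, and 3 rose and 6 fell at 6 h, with medians of -0.27 and -0.40. The shares of all genes were 13.5% higher and 7.94% lower at 3 h, and 18.7% higher and 11.8% lower at 6 h. Apex1, the endonuclease that cuts at the emptied site, had 83, 81.8 and 79.1 CPM in controls and 85.6, 88.4 and 92.3 CPM at 1.5 h. It had 160.2, 150.0 and 108 CPM at 3 h and 105, 128 and 129.7 CPM at 6 h. It rose by 0.78 ± 0.15 at 3 h (edgeR adjusted p = 0.0048), which stood in every alternative, and by 0.57 ± 0.14 at 6 h (edgeR adjusted p = 0.014). Apex1 lost its 6 h call without control replicate 3 or 6 h replicates 2 or 3 (then 0.45 to 0.56). The libraries that stood apart had the smallest rise at both times, and without them the log2 fold change was 0.87 ± 0.07 and 0.58 ± 0.07.

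The uracil glycosylases Ung and Smug1 were called at different times. Ung, which removes uracil, had 21.4, 25.9 and 18.9 CPM in controls and 19, 17.9 and 16.4 CPM at 1.5 h. It had 10.0, 13.2 and 13.1 CPM at 3 h and 18.8, 20.7 and 22.1 CPM at 6 h. Its 3 h libraries were under all others, with a log2 fold change of -0.87 ± 0.17 against control (edgeR adjusted p = 0.0064) that stood in every alternative, and the 6 h level was higher than the 3 h level by 0.76 (edgeR adjusted p = 0.037, not called with only these 2 groups in the fit). Smug1, another uracil glycosylase, had 27.3, 23.4 and 17.9 CPM in controls and 18.2, 21.2 and 19.9 CPM at 1.5 h. It had 24.9, 23.6 and 25.3 CPM at 3 h and 36.3, 40.3 and 37.3 CPM at 6 h. Its 6 h libraries were above all others (log2 fold change 0.73 ± 0.15, edgeR adjusted p = 0.0055), a call that stood in every alternative.

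Of the glycosylases of oxidised and mispaired bases, Ogg1, Mutyh and Mbd4 fell, while Neil1 and Neil3 were not called (Neil1 -0.33 ± 0.45 and Neil3 -1.99 ± 1.03 at 6 h, edgeR adjusted p = 0.59 and 0.16). Neil1 and Neil3 were called at 6 h without the libraries that stood apart (-0.89 ± 0.29 and -2.76 ± 0.73, edgeR adjusted p = 0.012 and 0.0034), and Neil3 at 3 h as well (-3.72 ± 0.84, edgeR adjusted p = 0.0011). Ogg1, which removes 8-oxoguanine, had 12.1, 9.95 and 9.26 CPM at 6 h, against 18.5, 14.6 and 15.8 CPM in controls (log2 fold change -0.64 ± 0.18, edgeR adjusted p = 0.022). Ogg1 lost its 6 h call without control replicates 1 or 3 or 6 h replicates 2 or 3 (then -0.67 to -0.55). Mutyh, which removes adenine opposite 8-oxoguanine, had 1.28, 0.411 and 0.914 CPM at 6 h, against 2.48, 2.43 and 1.94 CPM in controls (log2 fold change -1.37 ± 0.44, edgeR adjusted p = 0.038). Mutyh lost its 6 h call without control replicates 1, 2 or 3, 1.5 h replicates 1 or 2 or 6 h replicates 2 or 3 (then -1.47 to -1.10). Mbd4, a glycosylase of mismatches at CpG sites, changed by -1.28 ± 0.40 at 3 h and -1.24 ± 0.40 at 6 h (edgeR adjusted p = 0.046 and 0.04). Without the libraries that stood apart, Mbd4 was at -1.93 ± 0.35 at 3 h. Mbd4 lost its 3 h call without control replicates 1, 2 or 3, 1.5 h replicates 1 or 2, 3 h replicates 1 or 2 or 6 h replicates 2 or 3 (then -1.47 to -1.04). Mbd4 also lost its 6 h call without control replicates 1, 2 or 3, 1.5 h replicates 1 or 2 or 6 h replicates 1, 2 or 3 (then -1.51 to -1.06).

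Single-strand break factors were called in both directions. Parp1, the abundant sensor of strand breaks, had 162, 175 and 175 CPM at 6 h, against 215, 207 and 198 CPM in controls, and a log2 fold change of -0.28 ± 0.09 (edgeR adjusted p = 0.038). Parp1 lost its 6 h call without control replicates 1, 2 or 3, 1.5 h replicates 1 or 2 or 6 h replicate 1 (then -0.31 to -0.24). Aptx, which clears aborted ligations, was higher by 0.55 ± 0.17 at 6 h (edgeR adjusted p = 0.032). Aptx lost its 6 h call without control replicates 1, 2 or 3, 3 h replicates 1 or 2 or 6 h replicates 2 or 3 (then 0.45 to 0.59) and with library size alone. Xrcc1, the scaffold of this step, was not called against control at 6 h (-0.18 ± 0.11, edgeR adjusted p = 0.2) and differed between 6 h and 3 h by -0.43 ± 0.11 (edgeR adjusted p = 0.048, not called with only these 2 groups in the fit), with 61.6, 56.1 and 61 CPM at 6 h, against 79.6, 76.2 and 85.5 CPM at 3 h. Without the libraries that stood apart, Xrcc1 was called at 6 h (-0.29 ± 0.08, edgeR adjusted p = 0.0056).

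Of 9 nucleotide excision repair members 2 rose and 2 fell at 3 h, and 1 rose and 0 fell at 6 h, with medians of -0.09 and 0.24, against -0.40 and 0.02 with library size alone. For all genes the shares were 13.5% higher and 7.94% lower at 3 h, and 18.7% higher and 11.8% lower at 6 h. Ercc1, the partner of the nuclease Ercc4, had 29.6, 30.8 and 30.1 CPM in controls and 34.9, 42.2 and 34.1 CPM at 1.5 h. It had 60.5, 56 and 34.4 CPM at 3 h and 41.5, 60.4 and 50.2 CPM at 6 h. It rose by 0.74 ± 0.21 at 3 h (edgeR adjusted p = 0.031) and by 0.75 ± 0.21 at 6 h (edgeR adjusted p = 0.021). Ercc1 lost its 3 h call without control replicates 1, 2 or 3 or 3 h replicates 1 or 2 (then 0.54 to 0.75) and with library size alone. Ercc1 also lost its 6 h call without control replicates 1, 2 or 3 or 6 h replicates 2 or 3 (then 0.54 to 0.76). Ercc4 had 44.5, 55.6 and 59.1 CPM at 6 h, against 36, 35.8 and 37.9 CPM in controls and was not called (log2 fold change 0.54 ± 0.19, edgeR adjusted p = 0.051). Ercc4 was called without the libraries that stood apart, at 0.56 ± 0.10 at 3 h and 0.56 ± 0.10 at 6 h (edgeR adjusted p = 0.00012 and 9.9e-05).

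Of the members of the helicase complex TFIIH, Ercc2 and Gtf2h1 fell at 3 h, and Ercc3, Gtf2h3 and Mnat1 were not called. Ercc2, its helicase, had 25.5, 29.8 and 31 CPM in controls and 20.7, 24.4 and 25.4 CPM at 1.5 h. It had 16.6, 17.9 and 22.2 CPM at 3 h and 34.6, 34.2 and 33 CPM at 6 h. The 3 h libraries were under and the 6 h libraries over the controls. Ercc2 changed by -0.61 ± 0.15 at 3 h (edgeR adjusted p = 0.017). Ercc2 lost its 3 h call without control replicates 2 or 3 or 3 h replicates 1 or 2 (then -0.60 to -0.55). Ercc2 at 6 h was above its 3 h level by 0.84 (edgeR adjusted p = 0.015, not called with only these 2 groups in the fit). Gtf2h1, a core subunit, fell by 0.32 ± 0.10 at 3 h (edgeR adjusted p = 0.045). Gtf2h1 lost its 3 h call without control replicates 1, 2 or 3, 1.5 h replicates 1 or 2 or 3 h replicates 1 or 2 (then -0.41 to -0.28). Ercc3, the other helicase of TFIIH, was not called (0.03 ± 0.15 at 3 h, edgeR adjusted p = 0.89). Without the libraries that stood apart, Ercc3 was called lower at 1.5 h (-0.24 ± 0.07, edgeR adjusted p = 0.0077). Gtf2h3 and Mnat1, further subunits, were at -0.12 ± 0.19 and -0.42 ± 0.15 at 3 h (edgeR adjusted p = 0.65 and 0.067). Both were called at 3 h without the libraries that stood apart (-0.45 ± 0.14 and -0.52 ± 0.12, edgeR adjusted p = 0.011 and 0.0014), and so was Mnat1 at 6 h (-0.51 ± 0.12, edgeR adjusted p = 0.0014). Ddb2, the ultraviolet damage sensor and a p53 target, had 8.85, 8.14 and 8.89 CPM at 3 h, against 4.79, 5.07 and 5.37 CPM in controls (log2 fold change 0.76 ± 0.20, edgeR adjusted p = 0.026). Ddb2 lost its 3 h call without control replicates 1, 2 or 3 or 3 h replicates 1 or 2 (then 0.71 to 0.81) and with library size alone. Of 22 p53 target genes that are not members, 6 rose at 1.5 h, 10 at 3 h and 6 at 6 h, and 0, 0 and 1 fell. Over all genes tested, 1.95%, 13.5% and 18.7% were called higher at these times and 1.37%, 7.94% and 11.8% lower. Whether p53 had a part in these calls was not tested.

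Of 4 direct reversal and nucleotide pool members 0 were called at 3 h and 2 rose at 6 h, with medians of 0.30 and 0.42, and the 3 h median was -0.01 with library size alone. Among all genes 21.4% were called at 3 h in either direction and 18.7% were called higher at 6 h. Alkbh1 and Alkbh3 belong to the dioxygenases that strip alkyl groups from nucleic acids. Alkbh1 had 27.8, 39.3 and 34.6 CPM at 6 h, against 24.8, 20.6 and 20.1 CPM in controls (log2 fold change 0.64 ± 0.17, edgeR adjusted p = 0.018). Alkbh1 lost its 6 h call without control replicates 2 or 3 or 6 h replicates 2 or 3 (then 0.45 to 0.60). Alkbh3 had 51.9, 38 and 47.8 CPM at 6 h, against 28.9, 31 and 29.3 CPM in controls (log2 fold change 0.62 ± 0.16, edgeR adjusted p = 0.014). Alkbh3 lost its 6 h call without control replicate 1 or 6 h replicate 3 (then 0.53 to 0.61). Neither Alkbh call was made with library size alone. Mgmt, which takes methyl groups from guanine, was not called (0.37 ± 0.17 at 3 h, edgeR adjusted p = 0.13). Without the libraries that stood apart, Mgmt was called at 3 h (0.35 ± 0.11, edgeR adjusted p = 0.011). In that fit it was called in the other direction at 1.5 h (-0.37 ± 0.12, edgeR adjusted p = 0.013).

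Chromatin factors held falls and rises. Smarcad1, a remodeller that helps end resection, had 95.4, 83.8 and 96.7 CPM in controls and 82.5, 69.1 and 83.4 CPM at 1.5 h. It had 48.7, 54 and 62.4 CPM at 3 h and 72.8, 52.1 and 60.0 CPM at 6 h. Its 3 h change of -0.74 ± 0.15 (edgeR adjusted p = 0.007) stood in every alternative, and its 6 h change was -0.58 ± 0.15 (edgeR adjusted p = 0.015). Smarcad1 lost its 6 h call without control replicates 1 or 3 or 6 h replicates 2 or 3 (then -0.62 to -0.53). Parp3 had 62.7, 30.8 and 38.2 CPM at 6 h, against 79.6, 82.9 and 62.4 CPM in controls, with 6 h replicate 1 inside the control range (log2 fold change -0.77 ± 0.26, edgeR adjusted p = 0.043). Parp3 was at -1.21 ± 0.13 without the libraries that stood apart. Parp3 lost its 6 h call without control replicates 1, 2 or 3, 1.5 h replicates 1 or 2 or 6 h replicates 2 or 3 (then -0.89 to -0.63). Usp3, which removes ubiquitin from histones, had 68.8, 80.0 and 75.8 CPM at 6 h, against 48.4, 56.6 and 50.7 CPM in controls (log2 fold change 0.53 ± 0.15, edgeR adjusted p = 0.021). Usp3 lost its 6 h call without control replicates 1 or 3 or 6 h replicates 2 or 3 (then 0.41 to 0.51) and with library size alone.

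The 45 members on no pathway list carried the largest rises: 8 rose and 6 fell at 3 h, and 14 rose and 5 fell at 6 h. Of all genes, 13.5% rose and 7.94% fell at 3 h, and 18.7% rose and 11.8% fell at 6 h. Hspa1a, the inducible Hsp70 chaperone, had 25.3, 27.6 and 29.6 CPM in controls and 227, 213 and 189.6 CPM at 1.5 h. It had 428, 384 and 80.4 CPM at 3 h and 20.6, 131 and 125 CPM at 6 h. It was the only member called higher at 1.5 h (log2 fold change 2.93 ± 0.70, edgeR adjusted p = 0.0498). Hspa1a lost its 1.5 h call without control replicates 1, 2 or 3, 1.5 h replicates 1 or 2, 3 h replicates 1 or 2 or 6 h replicates 2 or 3 (then 2.87 to 2.99). At 3 h it rose by 3.43 ± 0.71 (edgeR adjusted p = 0.0088), which stood in every alternative although replicate 3 was far below the other 2, and at 6 h replicate 1 was under the controls while replicates 2 and 3 were above. It was not called at 6 h, but was without the libraries that stood apart (2.14 ± 0.09, edgeR adjusted p = 2.7e-11). Reads of Hspa1a may be shared with its near-identical neighbour copy, so its level is uncertain. The member line without a symbol (ENSRNOG00000045654), whose process text equals that of Hspa1a, had 0 counts in all 3 controls and 6.88, 6.16 and 0 CPM at 3 h, and was not called (edgeR adjusted p = 0.063, and 0.02 without the libraries that stood apart).

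Dot1l, the methyltransferase of histone H3 lysine 79, had 40.4, 45.9 and 44.5 CPM in controls and 89.1, 90.6 and 53.4 CPM at 1.5 h. It had 219, 251 and 117 CPM at 3 h and 85.9, 84.1 and 81.8 CPM at 6 h. Every 3 h library was above every library of the other groups. The log2 fold change was 2.17 ± 0.27 at 3 h (edgeR adjusted p = 0.0005), which stood in every alternative, and 0.94 ± 0.26 at 6 h (edgeR adjusted p = 0.022). Dot1l lost its 6 h call without control replicates 1, 2 or 3 or 6 h replicates 2 or 3 (then 0.88 to 0.98). Dot1l at 6 h differed from its 3 h level by -1.22 ± 0.26 (edgeR adjusted p = 0.032, not called with only these 2 groups in the fit). Bach1, a haem-regulated repressor of transcription, had 57.4, 52.7 and 58.4 CPM in controls and 65.8, 64.5 and 81.1 CPM at 1.5 h. It had 129, 147 and 114 CPM at 3 h and 89.7, 101 and 98.2 CPM at 6 h. Its rises of 1.21 ± 0.13 at 3 h and 0.78 ± 0.13 at 6 h (edgeR adjusted p = 0.00021 and 0.0016) stood in every alternative.

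Sirt7, a deacetylase of the nucleolus, had 32.5, 33.8 and 34.2 CPM in controls and 23.8, 21.8 and 33.1 CPM at 1.5 h. It had 48.9, 48.9 and 46.6 CPM at 3 h and 72.8, 80.8 and 84 CPM at 6 h. It rose stepwise at 3 h and 6 h, by 0.52 ± 0.15 and 1.24 ± 0.15 (edgeR adjusted p = 0.031 and 0.0003). The 6 h call stood in every alternative. Sirt7 lost its 3 h call without control replicates 1, 2 or 3, 3 h replicates 1, 2 or 3 or 6 h replicates 2 or 3 (then 0.47 to 0.54) and with library size alone. Ier3, an immediate early gene, had 316, 291 and 311 CPM in controls and 352, 328 and 384 CPM at 1.5 h. It had 494, 486 and 462 CPM at 3 h and 579, 539.6 and 511 CPM at 6 h, with rises of 0.65 ± 0.11 and 0.83 ± 0.11 (edgeR adjusted p = 0.0027 and 0.0005). Its 6 h call stood in every alternative, and its 3 h call was not made with library size alone or from the FPKM values. Chrna4, a nicotinic receptor subunit, rose by 1.99 ± 0.50 at 6 h to 5.82, 3.39 and 4.91 CPM, against 1.20, 1.29 and 1.06 CPM in controls (edgeR adjusted p = 0.013). Chrna4 lost its 6 h call without control replicate 3 (then 1.91). Fgf10, a growth factor, had 1.03, 1.43 and 1.14 CPM in controls and 3.32, 3.37 and 1.31 CPM at 1.5 h. It had 9.63, 9.02 and 1.47 CPM at 3 h and 1.88, 6.36 and 5.83 CPM at 6 h, a 3 h rise of 2.46 ± 0.71 (edgeR adjusted p = 0.033). Fgf10 lost its 3 h call without control replicates 1, 2 or 3 or 3 h replicates 1 or 2 (then 2.05 to 2.61).

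Smchd1 and Psme4 fell on the same list. Smchd1, a chromatin protein known from the silenced X chromosome, had 83.7, 78.3 and 87.3 CPM in controls and 92.7, 93.6 and 68.8 CPM at 1.5 h. It had 52.6, 50.8 and 52.6 CPM at 3 h and 53.2, 43.6 and 44.3 CPM at 6 h, with log2 fold changes of -0.68 ± 0.13 and -0.82 ± 0.13 (edgeR adjusted p = 0.0068 and 0.0016) that stood in every alternative. Psme4, an activator of the proteasome that acts on histones, had 403, 344 and 442 CPM in controls and 370.5, 334 and 416 CPM at 1.5 h. It had 284, 258 and 298 CPM at 3 h and 202, 204 and 211 CPM at 6 h; its 6 h change of -0.95 ± 0.13 (edgeR adjusted p = 0.00057) stood in every alternative, and its 3 h change was -0.50 ± 0.13 (edgeR adjusted p = 0.022). Psme4 lost its 3 h call without control replicates 1 or 3 or 3 h replicates 1 or 2 (then -0.54 to -0.41). Nsmce4a, a subunit of the SMC5/6 complex, had 47.3, 45.6 and 37.6 CPM at 6 h, against 72.5, 70.8 and 71.6 CPM in controls (log2 fold change -0.72 ± 0.12, edgeR adjusted p = 0.0017), which stood in every alternative. Ccdc117 was the 1 member called lower at 1.5 h, with 8.75, 6.98 and 8.36 CPM at 1.5 h, against 15.5, 13.9 and 15.2 CPM in controls (log2 fold change -0.89 ± 0.21, edgeR adjusted p = 0.046). Ccdc117 lost its 1.5 h call without control replicates 1, 2 or 3, 1.5 h replicates 1 or 2, 3 h replicates 1 or 2 or 6 h replicates 2 or 3 (then -0.95 to -0.79).

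Nabp1 and Ints3 belong to one complex that binds single-stranded DNA and were called in opposite directions at 6 h. Nabp1, its DNA-binding subunit, had 27.8, 25.4 and 30.9 CPM in controls and 16.9, 15.2 and 40.3 CPM at 1.5 h. It had 40.4, 41.9 and 53.1 CPM at 3 h and 58.4, 53.7 and 50.1 CPM at 6 h, with 1.5 h replicates 1 and 2 low and replicate 3 high. Its 6 h rise was 0.95 ± 0.31 (edgeR adjusted p = 0.04). Nabp1 lost its 6 h call without control replicates 1, 2 or 3, 3 h replicates 1, 2 or 3 or 6 h replicates 1, 2 or 3 (then 0.88 to 1.02) and with library size alone. Ints3, its scaffold, changed by -0.26 ± 0.09 (edgeR adjusted p = 0.0496). Ints3 lost its 6 h call without control replicates 1, 2 or 3, 1.5 h replicates 1 or 2 or 6 h replicates 1 or 3 (then -0.30 to -0.23). Sprtn, a protease of proteins crosslinked to DNA, had 46.2, 44.8 and 39.8 CPM at 6 h, against 27.6, 28.6 and 27.7 CPM in controls (log2 fold change 0.64 ± 0.17, edgeR adjusted p = 0.018). Sprtn lost its 6 h call without control replicates 1, 2 or 3 or 6 h replicate 2 (then 0.56 to 0.66) and with library size alone.

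Other unlisted members changed as well. Chchd4, a carrier of the mitochondrial import pathway, had 25.7, 32 and 21.7 CPM in controls and 25.2, 21.3 and 29 CPM at 1.5 h. It had 58.2, 47 and 33.3 CPM at 3 h and 44.8, 60.2 and 48.2 CPM at 6 h, rises of 0.80 ± 0.22 at 3 h and 0.95 ± 0.22 at 6 h (edgeR adjusted p = 0.03 and 0.01). Chchd4 lost its 3 h call without control replicates 1 or 3 or 3 h replicates 1 or 2 (then 0.56 to 0.78) and with library size alone. Chchd4 also lost its 6 h call without 6 h replicate 2 (then 0.75). Fbxo6, a subunit of a ubiquitin ligase, rose by 0.70 ± 0.16 at 3 h and 0.48 ± 0.16 at 6 h (edgeR adjusted p = 0.013 and 0.04). Fbxo6 lost its 3 h call without control replicate 1 or 3 h replicates 1 or 2 (then 0.56 to 0.63). Fbxo6 also lost its 6 h call without control replicates 1, 2 or 3, 1.5 h replicates 1 or 2, 3 h replicates 1 or 2 or 6 h replicates 2 or 3 (then 0.33 to 0.53) and with library size alone. Npas2, a transcription factor of the circadian clock, had 9.50, 8.83 and 11 CPM at 6 h, against 5.56, 5.93 and 4.49 CPM in controls (log2 fold change 0.87 ± 0.28, edgeR adjusted p = 0.037). Npas2 lost its 6 h call without control replicates 1, 2 or 3, 3 h replicates 1 or 2 or 6 h replicates 2 or 3 (then 0.72 to 0.96) and with library size alone. Tonsl, a scaffold at damaged forks, had 1.77, 1.87 and 5.59 CPM at 3 h, against 12.8, 12.9 and 9.95 CPM in controls (log2 fold change -1.94 ± 0.53, edgeR adjusted p = 0.028). Tonsl lost its 3 h call without control replicates 1, 2 or 3 or 3 h replicates 1 or 2 (then -2.05 to -1.68).

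Several named members were called at neither 3 h nor 6 h with all libraries in the fit, and most of them were called at 6 h without the libraries that stood apart. Brca2, the recombination mediator, had 16.7, 17.6 and 14.9 CPM in controls and 14.2, 13.4 and 12.9 CPM at 1.5 h. It had 3.74, 2.75 and 11.8 CPM at 3 h and 12.3, 3.39 and 3.31 CPM at 6 h, again with the libraries that stood apart near the controls (log2 fold change -1.36 ± 0.58 at 6 h, edgeR adjusted p = 0.096). Parp2, a second strand break sensor, was at -0.40 ± 0.22 at 6 h on the log2 scale, and Smc5, a core of the SMC5/6 complex, at -0.32 ± 0.19 (edgeR adjusted p = 0.18 and 0.21). Babam1 of the BRCA1-A complex and Dclre1c, the end joining nuclease, had log2 fold changes of -0.21 ± 0.12 and -0.19 ± 0.27 at 6 h. Nudt1, which clears oxidised nucleotides, had 2.05, 0.205 and 1.60 CPM at 6 h, against 2.65, 2.50 and 1.41 CPM in controls, and Tigar, a p53 target, was at 0.43 ± 0.23 (edgeR adjusted p = 0.44 and 0.17). In the fit without those libraries the 6 h log2 fold change was -2.37 ± 0.21 for Brca2, -0.71 ± 0.15 for Parp2, -0.62 ± 0.10 for Smc5 and -0.42 ± 0.10 for Babam1 (edgeR adjusted p = 8.7e-08, 0.00055, 5.5e-05 and 0.0012). Tigar was at 0.55 ± 0.12 and Nudt1 at -1.40 ± 0.59 (edgeR adjusted p = 0.00079 and 0.042), and Dclre1c was not called at 6 h (-0.21 ± 0.24, edgeR adjusted p = 0.43). Dclre1c was called lower at 1.5 h in that fit (-0.98 ± 0.26, edgeR adjusted p = 0.0046).

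**Figure D5:**
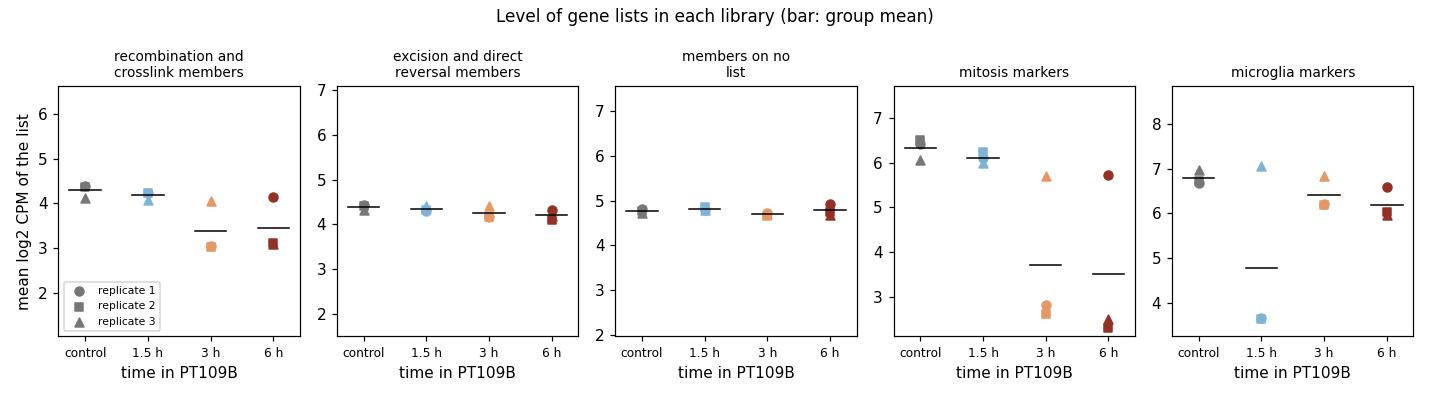
Mean log2 CPM of gene lists in each library by time in PT109B, on axes of equal span. Circles, squares and triangles are replicates 1, 2 and 3 and the bar is the group mean. The 29 recombination and crosslink members and the 20 mitosis markers are low in 3 h replicates 1 and 2 and 6 h replicates 2 and 3. The 28 excision and direct reversal members lie between 4.09 and 4.43, a pool of base excision members, which are lower in those libraries, with nucleotide excision members, which are not. The 19 microglia markers are low in 1.5 h replicates 1 and 2.

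Between consecutive times, 29 members were called at 3 h against 1.5 h, 13 higher and 16 lower, against 20.3% of all genes called, 12.1% higher and 8.23% lower. At 6 h against 3 h, 11 members were called, 7 higher and 4 lower, against 4.05% of all genes, 2.33% higher and 1.72% lower. Members with an unadjusted p below 0.05 numbered 54 and 36. With only the 2 groups of a comparison in the edgeR fit, 0 members were called in either, whereas DESeq2 called 46 and 21. Without the 3 libraries that stood apart, 28 members were higher and 66 lower at 3 h against 1.5 h, where 69.9% of all genes were called (35.2% higher and 34.7% lower). At 6 h against 3 h 25 were then higher and 24 lower, where 34.1% of all genes were called (15.4% higher and 18.7% lower). At 3 h against 1.5 h the edgeR count was 5 or 6 without replicate 1 or 2 of either time. At 6 h against 3 h it was 0 without 3 h replicate 1 or 2 or 6 h replicate 2 or 3.

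Levels per transcript length in controls were led by Pgd (560 ± 35.4 FPKM, SD, n = 3), Ier3 (209 ± 8.68 FPKM), Fh (55.1 ± 5.23 FPKM), Smc1a (45.0 ± 2.89 FPKM) and Parp1 (44.0 ± 1.92 FPKM). Fh, a Krebs cycle enzyme, lay above Smc1a, a cohesin subunit, by more than either SD, while Smc1a and Parp1 differed by less than either SD. The median member had 7.37 FPKM, against 8.56 over all genes of the table, and 8 members were under 1 FPKM. Of the 129 members, 61 were called against control at no time.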

How the data were processed

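Each of 9721 table lines holds, for 12 libraries, an estimated count and an FPKM value, both made and deposited by the authors. The submitters' processing notes list StringTie 2.2.1; no aligner, genome build, annotation or table filter is stated in what was used here. FPKM served for levels per length and for alternative tests. Whole counts had been assumed, but 9.49% of the estimated counts were not whole, and all were rounded. All libraries entered 1 fit in edgeR 4.0.16 (R 4.3.3; filterByExpr, TMM, robust quasi-likelihood, group as the only term). It kept 9491 genes, with Benjamini-Hochberg adjustment over them and a threshold of 0.05, and was tested on simulated counts. limma 3.58.1 and DESeq2 1.42.0 gave alternatives. "Every alternative" means each scaling, filter, block, tool and left-out library tried. Log2 levels use a prior count of 2.

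The labels give groups the same replicate numbers. Deviations of same-numbered libraries correlated above 0.1 in all 3 pairs between 1.5 h and control (0.20, 0.37 and 0.45) and between 3 h and 1.5 h (0.18, 0.17 and 0.22). Other numbers did as well in places: 1.5 h replicate 1 was at 0.30 with control replicate 2 and 0.20 with 3 h replicate 2. Replicate 3 stood apart at both 1.5 h and 3 h, which can give such values between these times without shared cultures. No control library was named as standing apart, so this does not bear on the values between 1.5 h and control. Whether the numbers pair these groups is thus not settled, and the main fit used no pairing. The remaining groups showed no such pattern.

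The members and lists were chosen with earlier results of these data known. Named genes are, per comparison with control, the 12 called members with the largest rise and the 12 with the largest fall (at least 1 CPM in the higher group), up to 4 called members per pathway list by adjusted p and up to 2 uncalled ones by CPM, and a set of well-known repair genes. Aptx, Aunip, Eme1, Fh, Gtf2h3, Ints3, Mms22l, Mnat1, Mre11, Neil1, Neil3, Nsmce4a, Parpbp, Pgd, Prrt2, Smarcal1, Smc1a, Sprtn, Uimc1 and the member without a symbol, and any member given only for a difference between consecutive times, were named after their values were seen. Some results are not reported here.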

Additional observations from a re-analysis of the deposited data

Results flagged for a closer look

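Members are given here where the level in PT109B differed between consecutive times by the edgeR test that compares the treated groups directly. Without controls of the same times, such a difference cannot be assigned to the compound, time or handling. Values in parentheses are log2 differences.

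At 3 h against 1.5 h, 16 members were lower, among them Zranb3 (-1.18), Hdac9 (-1.10), H2ax (-0.87), Chek1 (-0.80), Smchd1 (-0.71), Fancm (-0.70), Ttc5 (-0.62), Smc5 (-0.61), Ung (-0.55), Smarcad1 (-0.51), Atm (-0.48), Rad50 (-0.46), Psme4 (-0.42), Nsmce4a (-0.38) and Apbb1 (-0.38). Another 13 were higher: Ier3 (0.44), Babam2 (0.47), Fbxo6 (0.49), Sprtn (0.56), Apex1 (0.65), Alkbh1 (0.70), Fbxw7 (0.73), Ddb2 (0.80), Usp3 (0.81), Chchd4 (0.88), Sirt7 (0.88), Bach1 (0.88) and Dot1l (1.33). Adjusted p-values of these edgeR tests were 0.0032 to 0.0499. Hdac9, Smc5 and Apbb1 differed here without being called against control at any time in the full fit. Without the libraries that stood apart, Hdac9 was called at 3 h and 6 h (-1.15 ± 0.23 and -1.04 ± 0.23, edgeR adjusted p = 0.00039 and 0.00076). Apbb1 was then called at 1.5 h and 3 h (0.31 ± 0.07 and -0.22 ± 0.07, edgeR adjusted p = 0.0014 and 0.013). Smc5 was then called at 1.5 h and 3 h (0.34 ± 0.09 and -0.50 ± 0.10, edgeR adjusted p = 0.0056 and 0.00038), as at 6 h. With the replicate block, 9 of these 29 calls were lost, those of Ung, Hdac9, Babam2, Fbxo6, Apbb1, Nsmce4a, Sprtn, Rad50 and Chek1. Each of these times holds a library that stood apart, whose part in the shifts was not tested; without all such libraries 94 members were called.

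At 6 h against 3 h, 4 members were lower: Dot1l (-1.22), Prkdc (-0.75), Atm (-0.49) and Xrcc1 (-0.43). Another 7 were higher: Dclre1a (0.60), Smug1 (0.63), Sirt7 (0.72), Ung (0.76), Pwwp3a (0.80), Ercc2 (0.84) and Npas2 (1.20). Adjusted p-values of these edgeR tests were 0.015 to 0.049. With only these 2 groups in the edgeR fit 0 of the 11 were called, as without 3 h replicate 1 or 2 or 6 h replicate 2 or 3; 36 members had an unadjusted p below 0.05 in the full fit and DESeq2 called 21. Ung and Ercc2, which fell at 3 h against control, were not called against control at 6 h. Atm was lower at 6 h than at 3 h and at 3 h than at 1.5 h.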

How the results depend on the processing

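Counts of members called moved most with the libraries. Without the 3 libraries that stood apart, 45 members were called at 1.5 h instead of 2 in the full fit, 102 at 3 h instead of 38, 104 at 6 h instead of 52, 94 at 3 h against 1.5 h where the full fit called 29, and 49 at 6 h against 3 h where it called 11; this setting was chosen after seeing the data, as was the FPKM depth. Leaving out 1 library at a time gave 0 to 16, 13 to 74, 23 to 72, 5 to 68 and 0 to 17 calls in these comparisons, each highest without a library that stood apart. At 1.5 h 0 members were called with RLE factors or limma-voom, 1 with only the 2 groups, and 4 with library size, FPKM depth, DESeq2 or limma on log2 FPKM plus 0.1 or 1. At 3 h limma on FPKM called 59 and 61. With only the 2 groups compared, 0 were called at 3 h against 1.5 h and 0 at 6 h against 3 h (11 in the full fit), and DESeq2 called 46 and 21. The cause of these moves was not tested.

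Scaling moved the split. With depth from the ratio of count to FPKM, 7 members were higher and 46 lower at 3 h and 13 higher and 36 lower at 6 h (all-gene medians -0.31 and -0.22); at 6 h against 3 h it gave 10 higher and 1 lower. Library size alone gave 7 higher and 26 lower at 3 h against 1.5 h. The FPKM fits, with a pseudocount of 0.1 or 1, called 5 members higher and 54 or 56 lower at 3 h, and 14 or 15 higher and 43 or 45 lower at 6 h. At 3 h against 1.5 h they called 7 higher and 32 or 35 lower.

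With the replicate block, 0 members were called at 1.5 h, 27 at 3 h, 41 at 6 h, 21 at 3 h against 1.5 h and 2 at 6 h against 3 h, where the calls of Ung, Npas2, Xrcc1, Pwwp3a, Prkdc, Dclre1a, Atm, Sirt7 and Smug1 were lost. Over all groups 8 of 18 same-numbered pairs and 12 of 36 other pairs correlated above 0.1, and 1.5 h replicate 1 correlated better with control replicate 2 (0.30) than with its own number. Outside 1.5 h against control and 3 h against 1.5 h, the samples share only a number, and within these 2 comparisons a pairing is not settled either. No call against control changed sign in any setting.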
